A study of Mus musculus with 10 samples.

Results

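The non-immune scaffold cells of lymph nodes draining a 67NR mammary tumour were compared with those of nodes from mice injected with LPS, cell by cell, in 1 single-cell RNA-seq library. Antibody hashtags marked the pool a cell came from, and a cell was taken into the 67NR or the LPS pool when that hashtag had at least 10 counts and at least 3 times the count of the next hashtag. Cells with 500 or more unique molecular identifiers (UMIs, each standing for 1 captured RNA molecule) and at most 10% mitochondrial UMIs were kept. Fibroblasts were cells with 5 or more UMIs summed over Col1a1, Col1a2, Col3a1 and Dcn and no UMI of Ptprc or Pecam1. Endothelial cells had 2 or more UMIs summed over Pecam1 and Cdh5, no Ptprc UMI and fewer than 3 Col1a1 UMIs. These rules gave 1033 cells, 362 fibroblasts and 274 endothelial cells from the 67NR pool and 227 fibroblasts and 170 endothelial cells from the LPS pool, out of 56333 barcodes in the 5 gene libraries of the series (10 samples in all, counting hashtag libraries).

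All mice were wild-type BALB/C females of 8 weeks on standard chow, and the axillary node was taken. The 67NR pool came from mice carrying 67NR cells, a mouse mammary carcinoma line described as non-metastatic, placed orthotopically in the 4th mammary fat pad and left for 18 days, to a tumour of about 500 mm3. The LPS pool came from mice without tumours, 72 hours after a subcutaneous injection. LPS, a component of the outer membrane of Gram-negative bacteria, is sensed through the receptor TLR4. The hashtag of this pool is named LPS.PL, the protocol names LPS and poly(I:C), a mimic of viral double-stranded RNA, side by side, and the labels do not say whether this pool received LPS alone; the pool is called LPS here as in the library's description. The same library held a pool from untreated naive mice and a pool from mice with 4T1 tumours, a metastatic sister line of 67NR, and both are given beside the results as further levels. At least 3 mice per condition were pooled behind 1 hashtag and cells cannot be traced to a mouse, so each condition is 1 sample. No test between conditions was possible; intervals are 95% and cover counting error only, and differences between pools of mice cannot be told apart from differences between treatments.

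Lymph node fibroblasts build the collagen conduits of the node and make the chemokines that position lymphocytes: Ccl19 and Ccl21 in the T-cell zone, Cxcl13 in follicles. Node endothelium comprises lymphatic vessels, capillaries and high endothelial venules, through which lymphocytes enter the node by binding sugar-decorated addressins. LPS signalling through TLR4 switches on NF-kB targets and a type I interferon programme, and interferons raise antigen presentation by MHC class I in stromal cells.

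Levels are given in CPM, a gene's UMIs scaled to 1000000 UMIs of the pool's cells in a gate, and differences as the log2 ratio of CPM, 67NR over LPS. A gene counted as measured where at least 10 UMIs were expected in each pool at equal CPM, and as called when the ratio passed 2-fold. The pools shared 1 droplet library and therefore the same free RNA. Depth was similar: the median fibroblast held 14231.5 UMIs in the 67NR pool and 16824 in the LPS pool, and the median endothelial cell 10053.5 and 8612. The mitochondrial limit removed 34.1% of the barcodes called 67NR (472 of 1383) and 14.1% of those called LPS (100 of 710), so the kept cells are a smaller share of the tumour pool. Fewer cells of a kind and less RNA per cell cannot be told apart in a summed CPM. Markers outside the fibroblast gate were mixed. In fibroblasts Pdgfra was detected in 85.4% of 67NR and 70.0% of LPS cells and Pdpn in 77.3% and 75.8%. Endothelial Cdh5 stood at 1.32 and 1.31 CPM, and Kdr, Emcn, Egfl7 and Cldn5 were also low. Endothelial Tek, however, was at 91.2 and 112 CPM, in 42.3% and 44.5% of fibroblasts, so it was not restricted to the endothelial gate. The capillary gene Plvap was found in 27.6% and 31.3%. The carcinoma markers Epcam, Krt8, Krt18 and Cdh1 were at 0 in the 67NR fibroblasts. Fibroblasts made up 39.7% of 67NR cells (exact interval 36.5 to 43.0%) and 37.2% of LPS cells (33.4 to 41.2%), and endothelial cells 30.1% (27.1 to 33.2%) and 27.9% (24.3 to 31.6%). These shares overlapped in their intervals. They are shares of the gates: the rule of no Pecam1 UMI left out many cells that otherwise met the fibroblast rule and were not endothelial. It left out 38.7% of such cells in the 67NR pool (229 of 591) and 41.0% in the LPS pool (158 of 385).

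A group of fibroblasts carried Smpd3, which encodes the membrane enzyme neutral sphingomyelinase 2, or Duox2, a dual oxidase that makes hydrogen peroxide. Cells with 2 or more UMIs summed over both genes made up 51.9% of 67NR fibroblasts (188 of 362, exact interval 46.7 to 57.2%) and 41.4% of LPS fibroblasts (94 of 227, 34.9 to 48.1%). The share was 30.7% in the 4T1 pool (35 of 114) and 19.2% in the naive pool (25 of 130), so the 67NR pool had the highest and the naive pool the lowest share at this hashtag limit. With a hashtag at least 10 times the next, the order of the compared pools turned, with 33.0% in 67NR (75 of 227) and 42.0% in LPS (92 of 219), against 21.6% in 4T1 (19 of 88) and 8.64% in naive (7 of 81). Among endothelial cells 1.82% (5 of 274) and 2.35% (4 of 170) met the same rule. Nearly all of these fibroblasts also met a gate for adventitial fibroblasts, 2 or more UMIs of Pi16 and Dpp4, genes of the progenitor-like fibroblasts around larger vessels: 185 of 188 in the 67NR pool and 93 of 94 in the LPS pool. Few fell in the T-zone gate of 3 or more Ccl19 UMIs, 3 cells in each pool. Over all fibroblasts, the adventitial gate held 62.7% in 67NR (227 of 362) and 57.7% in LPS (131 of 227). In 4T1 it held 47.4% (54 of 114) and in naive 29.2% (38 of 130). Most cells of this gate met the Smpd3/Duox2 rule, 81.5% in 67NR, 71.0% in LPS, 61.1% in 4T1 and 65.8% in naive. Leaving out the Smpd3/Duox2 cells thus also left out most adventitial-gate cells of every pool. The T-zone gate held 25.4% (92 of 362) and 24.2% (55 of 227).

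The Smpd3/Duox2 cells of the 67NR pool differed from those of the LPS pool in the number of hashtag counts, which bears on how firmly they belong to their pool. Their median hashtag count was 394.5 in the 67NR pool, against 1995 in other 67NR fibroblasts and 2097.5 in 67NR endothelial cells. The corresponding medians in the LPS pool were 2815.5, 6135 and 4102.5. In the 67NR pool 39.9% of the Smpd3/Duox2 cells (75 of 188) had a hashtag at least 10 times the next, against 97.9% (92 of 94) in the LPS pool. The naive and 4T1 pools showed the same order, with medians of 347 and 626 in Smpd3/Duox2 fibroblasts against 1080 and 2395 in other fibroblasts. A further 51 Smpd3/Duox2 fibroblasts passed the RNA filters with no hashtag call. TotalSeq-B hashtag antibodies bind surface proteins that include MHC class I, and the summed CPM of the MHC class I genes had the same order across the cells of the 67NR pool, at 4175 in Smpd3/Duox2 fibroblasts, 9636 in other fibroblasts and 18728 in endothelial cells. In the LPS pool those sums were 16004, 19065 and 22354. There the order was not the same, since other fibroblasts had a higher hashtag median than endothelial cells (6135 against 4102.5). The part of antibody binding in the hashtag counts was not tested, and the log2 ratios and list counts within the Smpd3/Duox2 cells are given below with and without the low-hashtag cells.

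**Figure D1:**
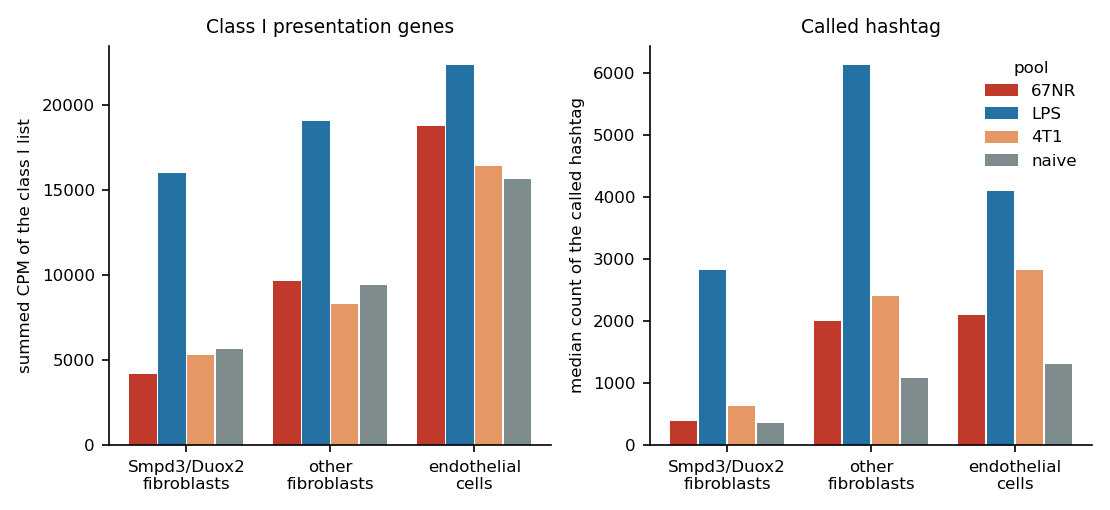
Summed CPM of the MHC class I gene list (left) and median count of the called hashtag (right) in Smpd3/Duox2 fibroblasts, other fibroblasts and endothelial cells of the 4 pools, 1 pool per condition. The Smpd3/Duox2 fibroblasts sit lowest in every pool on both axes, and those of the LPS pool (16004 CPM, 2815.5 hashtag counts) sit above those of the 67NR pool (4175 CPM, 394.5 counts).

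Across all fibroblasts, 540 of 11750 measured genes (4.6%) were past 2-fold higher in the 67NR pool and 315 (2.68%) past 2-fold lower, with a median log2 ratio of 0.05. The higher genes included the oxidase machinery of the Smpd3/Duox2 cells and matrix genes. Among the lower ones were interferon-stimulated genes, MHC class I genes and Cxcl13, though not as the genes with the largest ratios throughout. Counts by list in all fibroblasts below read against 4.6% of all genes higher and 2.68% lower. With the Smpd3/Duox2 cells left out, 530 of 10446 genes (5.07%) were higher and 335 (3.21%) lower. The number of genes past 2-fold was thus close to that with them. The rule removes cells by Duox2 itself, which then had 3 against 2 UMIs, and Duoxa2 had 0 in both pools. Neither gene could be measured there, so nothing is read from their absence.

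Duoxa2, the maturation factor that carries DUOX2 out of the endoplasmic reticulum, was at 36.0 CPM in 67NR fibroblasts, 0.523 in LPS, 10.8 in 4T1 and 0.62 in naive fibroblasts. The log2 ratio was 6.10 (4.23 to 9.16), from 191 against 2 UMIs. Duox2 itself stood at 114, 4.97, 35.3 and 14.9 CPM in the same order of pools, a log2 ratio of 4.52 (3.86 to 5.26) from 604 against 19 UMIs. For both genes the 2 tumour pools of this library were above the LPS pool, and the 67NR pool was highest. In a second library, described below, more 4T1 than 67NR fibroblasts had a Duox2 UMI (35.8% against 25.4%). The genes lie head to head on mouse chromosome 2, Duox2 at chr2:122279247-122298449 on the minus strand and Duoxa2 at chr2:122298900-122302885 on the plus strand (mm10, protein-coding), and their RefSeq starts are 673 bases apart.

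Because the gate uses Duox2, a further count asked only how many gated cells had a Duox2 UMI: 127 of 188 in the 67NR pool (67.6%, exact interval 60.4 to 74.2%) and 12 of 94 in the LPS pool (12.8%, 6.77 to 21.2%). In 4T1 and naive pools it was 62.9% (22 of 35) and 40.0% (10 of 25), so the LPS pool was the lowest of the 4. Among blood endothelial cells outside the venule gate, 0.595% of 168 67NR cells and 1.53% of 131 LPS cells had a Duox2 UMI, whereas 20.8% of 72 and 18.5% of 27 lymphatic cells did, so the endothelium did not lack the gene. With the hashtag at least 10 times the next the shares were 62.7% in 67NR (47 of 75) and 13.0% in LPS (12 of 92). Every gated cell of both pools had 2 or more Smpd3 UMIs, so the gate rested on Smpd3, whose level in the gated cells was 2546 CPM in 67NR, 761 in LPS, 1882 in 4T1 and 970 in naive; nothing is read from it. Over all fibroblasts Smpd3 was at 1480, 373, 620 and 259 CPM in 67NR, LPS, 4T1 and naive, a log2 ratio of 1.99 (1.91 to 2.07).

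Several genes outside the rule followed the same cells. Car4, a membrane-anchored carbonic anhydrase, was at 101 CPM in 67NR, 3.14 in LPS, 37.4 in 4T1 and 11.8 in naive fibroblasts, a log2 ratio of 5.0 (4.19 to 5.96). Mrgprg, an orphan G protein-coupled receptor, was at 626, 65.1, 222 and 110 CPM (3.26, 3.08 to 3.46). Daglb, a lipase that makes the endocannabinoid 2-arachidonoylglycerol, was at 619, 88.6, 284 and 133 CPM (2.80, 2.64 to 2.97). Cntn2, a neural cell adhesion molecule, was at 53.5, 3.14, 4.88 and 1.86 CPM (4.09, 3.26 to 5.06). In these 4 genes the 67NR pool was highest, and the 4T1 pool stood between it and the naive pool. Hcn4, a pacemaker channel gene, had 120 UMIs in 67NR and 3 in LPS fibroblasts, and the phosphatase gene Acpp 83 and 2. Without the Smpd3/Duox2 cells the ratio was 0.32 for Daglb and -0.18 for Cntn2, while Car4 (3.73) and Mrgprg (2.14) remained past 2-fold. Within the Smpd3/Duox2 cells alone, Duox2 was at 4.41, Duoxa2 at 5.85 and Car4 at 4.83, and with the hashtag at least 10 times the next (75 against 92 cells) they were at 4.08, 5.25 and 4.78. Also within these cells Ltc4s, leukotriene C4 synthase, was at 375 CPM and found in 74.5% of the 67NR cells, with a ratio of 3.77 (3.89 with the hashtag 10 times the next). Ankrd1, a mechanically regulated ankyrin repeat gene, had a ratio of 4.46, from 328 against 9 UMIs. It was 2.33 with the hashtag 10 times the next, from 31 against 9 UMIs, so most of its UMIs came from low-hashtag cells.

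Several matrix genes were higher in 67NR fibroblasts, but not all. The abundant proteoglycan genes Dcn, part of the gate, and Lum were lower, short of 2-fold. Dcn was at 6237 CPM in 67NR and 10488 in LPS fibroblasts, and Lum at 516 and 873. Of 28 measured matrix glycoprotein and crosslinker genes 12 were past 2-fold higher and none lower (median 0.67, against 0.05 over all genes), and of 19 collagens 5 were higher and none lower (median 0.54). The collagen genes summed to 14172 CPM in 67NR, 8845 in LPS, 11521 in 4T1 and 6283 in naive fibroblasts. The fibroblast gate itself uses Col1a1, Col1a2 and Col3a1. These were at 1400, 1870 and 4182 CPM in 67NR and 963, 1647 and 2598 in LPS fibroblasts. Collagen sums and counts are thus in part those of gate genes and describe only the cells the gate picked. Postn encodes periostin, a matricellular protein of remodelling tissue, and was at 1608, 317, 683 and 217 CPM, a log2 ratio of 2.34 (2.26 to 2.43). Tnc encodes tenascin-C, which also serves as a ligand of TLR4, and was at 81.2, 13.3, 28.2 and 5.58 CPM (2.61, 2.19 to 3.05), with 82.8% of its UMIs in the 5% of cells richest in it. Ccn2, a growth factor-binding matricellular gene, was at 53.5, 7.32, 9.76 and 9.31 CPM (2.87, 2.31 to 3.48). Tnc was highest in 67NR and lowest in naive fibroblasts, whereas Ccn2 was high in the 67NR pool and near 10 CPM or under in each of the other pools.

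The small leucine-rich proteoglycan gene Fmod was at 21.9, 2.35, 13.6 and 8.07 CPM (3.22, 2.24 to 4.38) and Thbs4, a thrombospondin of tendon and muscle matrix, at 23, 2.62, 21.2 and 3.72 (3.14, 2.21 to 4.23). Thbs4 came almost wholly from few cells, with 97.5% of its UMIs in the top 5%. The fibril-associated collagen Col12a1 was at 247, 55.2, 96.5 and 32.9 CPM, and the collagen chains Col5a3 and Col6a2 had ratios of 1.61 and 1.47. The matrix genes divided by cell group. Postn was at 2.68 within Smpd3/Duox2 cells and 0.62 without them, Col6a2 at 1.83 and 0.48, and Col5a3 at 1.85 and 0.14. With the hashtag 10 times the next, the values within the Smpd3/Duox2 cells were 2.70, 1.75 and 1.85. Tnc (2.81), Ccn2 (3.28), Fmod (3.51) and Thbs4 (3.43) were past 2-fold higher without the Smpd3/Duox2 cells. By list, the collagens were 7 of 17 higher within Smpd3/Duox2 cells (median 0.84; 5.27% of all genes were higher there) and 1 of 19 without them (median 0.33; 5.07% of all genes). For the cells with a hashtag 10 times the next, the median of the collagens was 0.87. TGF-beta and activin genes were 2 of 16 higher in all fibroblasts (median 0.47) and 6 of 17 without the Smpd3/Duox2 cells (median 0.64). Over all genes the shares were 4.6% and 5.07%. Among the higher genes was Tgfbi, a TGF-beta-induced adhesion protein (1.78 in all, 2.23 without). Grem1, a secreted BMP antagonist, was at 87.8, 24.8, 61.8 and 21.1 CPM (1.82).

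The homeostatic chemokines did not all differ in the same direction. Ccl21a, which guides naive T cells and dendritic cells through CCR7, was at 3834 CPM in 67NR, 1018 in LPS, 3562 in 4T1 and 2163 in naive fibroblasts, a log2 ratio of 1.91 (1.86 to 1.96). Ccl19, the other CCR7 ligand, was at 803, 385, 851 and 701 CPM (1.06, 0.98 to 1.15). For both genes the LPS pool was the lowest of the 4 and the tumour pools were near or above the naive pool. Ccl21a and Ccl19 have near-identical copies in the mouse genome, so their counts may stand for several copies. Cxcl13, which draws B cells into follicles, went the other way at 169, 768, 479 and 171 CPM, a log2 ratio of -2.18 (-2.29 to -2.07): the 67NR pool was level with the naive pool and the LPS pool was highest. It was detected in 22.9% of 67NR and 57.7% of LPS fibroblasts. Cxcl12, which retains CXCR4-bearing cells, was at 1417 and 1514 CPM, a ratio of -0.10 (-0.14 to -0.05).

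These chemokines also differed between fibroblast groups. In Smpd3/Duox2 cells Cxcl13 was at 47.4 CPM in the 67NR and 703 in the LPS pool (-3.89), where 66.0% of the LPS cells had a UMI against 9.57% of the 67NR cells, and without these cells it was at 338 and 829 CPM (-1.29). Ccl21a within Smpd3/Duox2 cells was lower in the 67NR pool, at 7.79 against 209 CPM (-4.74), the reverse of its direction in the other fibroblasts (2.36). The UMI was found in 12.2% and 11.7% of the cells, so a few LPS cells carried the difference. With the hashtag 10 times the next, Cxcl13 was at -2.68 and Ccl21a at -4.59. In the T-zone gate without Smpd3/Duox2 cells (89 against 52 cells, chosen by Ccl19, from which nothing is read), Ccl21a was at 15963 against 3964 CPM (2.01) and Cxcl13 at 453 against 1099 (-1.28).

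Of the inflammatory chemokines and cytokines, Ccl2, Il6 and Cxcl2 were past 2-fold higher in the 67NR pool outside the Smpd3/Duox2 cells. Ccl2, the ligand that recruits monocytes through CCR2, was at 1905, 1028, 1682 and 786 CPM in 67NR, LPS, 4T1 and naive fibroblasts (0.89, 0.84 to 0.94). Without the Smpd3/Duox2 cells it was at 2998 against 750 CPM (2.00, 1.92 to 2.08), and within them at 1114 against 1324 (-0.25, -0.32 to -0.17). The direction within these cells turned with the hashtag 10 times the next (0.44, 0.35 to 0.52). Ccl7, its neighbour in function, was at 1344 and 996 CPM (0.43), and at 0.96 without those cells. Il6, the interleukin that drives the acute-phase response, was at 482, 216, 540 and 240 CPM (1.16, 1.04 to 1.27) and at 1.63 without those cells. Il33, an alarmin kept in stromal nuclei, was at 509, 309, 538 and 177 CPM (0.72). Cxcl2, a neutrophil chemoattractant, was at 586, 171, 525 and 196 CPM (1.77, 1.65 to 1.90), with 80.8% of its UMIs in the top 5% of cells. The 2 tumour pools were above the LPS pool in each of these 5 genes, and the LPS pool lay near the naive level for Il6 and Cxcl2. Il34, a ligand of the macrophage receptor CSF1R, was at 55.8, 9.94, 10.3 and 13.0 CPM (2.49, 2.00 to 3.02), high in the 67NR pool alone of the 4.

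By list, 3 of 14 inflammatory chemokines were past 2-fold higher and 2 lower (median 0.46), and without Smpd3/Duox2 cells 4 of 13 higher and 1 lower (median 0.50). NF-kB target and feedback genes were 0 of 20 called with a median of 0.19 in all fibroblasts, 4 higher and none lower with a median of 0.68 without Smpd3/Duox2 cells, and none higher and 2 lower with a median of -0.36 within them (-0.04 with the hashtag 10 times the next, also 2 lower). Nfkb1, the p105 precursor of NF-kB, was at 1140, 645, 798 and 505 CPM (0.82, 0.75 to 0.89) and at 1.52 without Smpd3/Duox2 cells. Cd44, the hyaluronan receptor, had ratios of 1.54 and 1.76. The counts without Smpd3/Duox2 cells read against 5.07% of all genes higher and 3.21% lower. Markers of other cells were low in both pools: the 8 T-cell genes summed to 46.7 and 19.4 CPM and the 11 myeloid genes to 11.1 and 13.1 CPM. The T-cell sum came from Cd3e, at 42.4 and 9.94 CPM, while Cd3d had 1 UMI in each pool, Cd8a had none, and Trac had 14 and 19 UMIs.

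The sensing apparatus for LPS itself differed little. Tlr4, at chr4:66827584-66930284 on the plus strand (mm10), was at 83.3, 65.4, 75.4 and 61.4 CPM, a ratio of 0.35 (0.12 to 0.58). Its co-receptors were at -0.18 (-0.65 to 0.30) for Cd14, which hands LPS to the receptor, and 0.02 (-0.41 to 0.46) for Ly96, which encodes MD-2. Of 13 measured genes of the receptor and its adaptors none was past 2-fold in either direction (median 0.02). Acute-phase and innate secreted proteins were mixed, with 5 of 12 higher and 2 lower (median 0.75). Saa3, a serum amyloid A made locally in inflamed stroma, was at 23.9 CPM in 67NR, 259 in LPS, 2.17 in 4T1 and 0.62 in naive fibroblasts (-3.44, -3.72 to -3.17), but 95.6% of its UMIs were in the top 5% of cells. Without the Smpd3/Duox2 cells the 67NR pool held 1 Saa3 UMI and the LPS pool 976, in 19.5% of its cells, a ratio of -10.11 (-15.41 to -7.63). Within the Smpd3/Duox2 cells the direction turned, with 126 UMIs from 2.13% of the 67NR cells against 16 from 8.51% of the LPS cells (2.25). All of those 67NR UMIs were in low-hashtag cells: with the hashtag 10 times the next the counts were 0 and 16, so Saa3 was not higher in the 67NR pool at that limit. Lcn2, the iron-siderophore-binding lipocalin, had 1 UMI in 67NR and 36 in LPS fibroblasts, a ratio of -5.64 (-10.99 to -3.07).

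Several interferon-stimulated genes were lower in the 67NR pool. Of 23 measured type I interferon response genes none was past 2-fold higher and 6 were lower (median -0.57), and 22 of 23 had a ratio below 0. Their summed level was 1979 CPM in 67NR, 3288 in LPS, 1948 in 4T1 and 1627 in naive fibroblasts, so the LPS pool stood above 3 pools close to each other. Rsad2, the antiviral enzyme viperin, was at 2.64, 26.2, 10.8 and 3.10 CPM (-3.31, -4.23 to -2.50, from 14 against 100 UMIs). Ifit1, which binds viral RNA caps, was at 44.8, 251, 94.4 and 98.0 CPM (-2.48, -2.69 to -2.28) and was detected in 17.7% of 67NR and 39.2% of LPS cells. Irf7, the transcription factor that amplifies interferon production, was at 33.4, 153, 25.5 and 37.2 CPM (-2.20, -2.45 to -1.95). In all 3 genes the LPS pool was the highest of the 4. Leaving out the Smpd3/Duox2 cells kept each of them past 2-fold lower (-4.52, -2.62 and -1.91), and 8 of the 23 listed genes were then lower (median -0.82). Within Smpd3/Duox2 cells 1 of 23 was higher and 6 lower (median -0.50), with the hashtag 10 times the next the median was -0.32 and Rsad2 and Ifit1 were at -2.15 and -1.21. Ifi208, an interferon-inducible p200 family gene, had 6 against 56 UMIs (-3.70), and Ccl5, a chemokine of the same programme, 16 against 69 (-2.58).

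The sequences just before the starts of Rsad2 and Ifit1 are shown because both genes were past 2-fold lower and hold the letters of the interferon-stimulated response element, the DNA word bound by interferon-activated factors. The word searched was GAAA, then any 2 bases, then GAAA again, on both strands. The 250 bases before each RefSeq gene start (GRCm38.p6) are written 5′ to 3′ along the gene's strand, Rsad2 at chr12:26456453-26456702 on the minus strand and Ifit1 at chr19:34640639-34640888 on the plus strand, with matches in capitals. All 3 matches are on the strand opposite to the gene, beginning 120 bases before the start of Rsad2 and 104 and 85 bases before that of Ifit1.
Rsad2: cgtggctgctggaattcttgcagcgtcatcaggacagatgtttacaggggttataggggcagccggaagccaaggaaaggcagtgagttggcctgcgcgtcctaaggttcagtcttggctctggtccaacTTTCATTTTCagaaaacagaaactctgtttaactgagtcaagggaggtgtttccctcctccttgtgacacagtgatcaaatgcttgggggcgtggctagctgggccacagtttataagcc
Ifit1: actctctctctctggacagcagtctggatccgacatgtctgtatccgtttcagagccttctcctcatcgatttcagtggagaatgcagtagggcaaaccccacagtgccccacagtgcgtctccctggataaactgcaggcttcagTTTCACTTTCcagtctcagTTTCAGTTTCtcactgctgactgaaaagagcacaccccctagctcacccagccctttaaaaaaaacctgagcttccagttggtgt
In windows of 300 bases, from 250 before to 50 after the start, the word was found in 1131 of 32851 windows (3.44%), in 8 of the 17 type I interferon list genes with a window, and in 3 of 14 MHC class I list genes. The windows of Irf7 and H2-D1 held no match, which says only that these letters are not in those windows. A match is a description of these letters and not a measured binding site.

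Many MHC class I presentation genes were lower in 67NR fibroblasts, with larger ratios within the Smpd3/Duox2 cells than outside them. Of 16 measured genes none was higher and 8 were past 2-fold lower in all fibroblasts (median -0.93), 2 were lower without the Smpd3/Duox2 cells (median -0.51), and 10 were lower within them (median -1.42; 3.32% of all genes were lower there). H2-D1, a class I heavy chain at chr17:35262730-35267499 (mm10), was at 2241, 7404, 2367 and 3068 CPM in 67NR, LPS, 4T1 and naive fibroblasts (-1.72, -1.76 to -1.69). B2m, the light chain shared by all class I molecules, was at 1948, 5166, 2199 and 2464 CPM (-1.41), and H2-K1 at 986, 2777, 1109 and 1154 CPM (-1.49). The LPS pool was above the other 3 pools for each of these genes, and the 67NR pool was the lowest. Within Smpd3/Duox2 cells H2-D1 was at 1313 against 6640 CPM (-2.34) and B2m had a ratio of -1.87, while outside them H2-D1 was at 3524 against 8124 CPM (-1.21). With the hashtag 10 times the next, H2-D1 was at -1.99, H2-K1 at -1.71 and B2m at -1.52, and 9 of the list were lower (median -1.21). Counts of H2 genes are uncertain, since the genes are near-identical and the BALB/C alleles differ from the reference; this holds for all pools.

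Genes of the interferon gamma response were 0 of 16 higher and 4 lower in all fibroblasts (median -0.79). Without the Smpd3/Duox2 cells 2 were lower (median -0.47) and within them 10 (median -1.14). Over all genes 2.68% were lower in all fibroblasts, 3.21% without these cells and 3.32% within them. The count of 10 depended on the hashtag call, since 2 were lower with the hashtag 10 times the next (median -0.56). Cxcl10, a ligand of the chemokine receptor CXCR3 on T cells, was at 549, 1150, 982 and 1395 CPM (-1.07), so the 67NR pool was the lowest of the 4 and the naive pool the highest. Cd274, which encodes the checkpoint ligand PD-L1, was at 9.42 against 27.5 CPM (-1.54). Complement genes were 1 of 11 higher and 1 lower in all fibroblasts (median -0.39), where 4.6% of all genes were higher and 2.68% lower. Within Smpd3/Duox2 cells 7 of 10 were lower (median -1.32), and 5 with the hashtag 10 times the next (median -1.08). Cfb, factor B of the alternative pathway, was at 168, 538, 203 and 101 CPM (-1.68, -1.80 to -1.57).

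**Figure D2:**
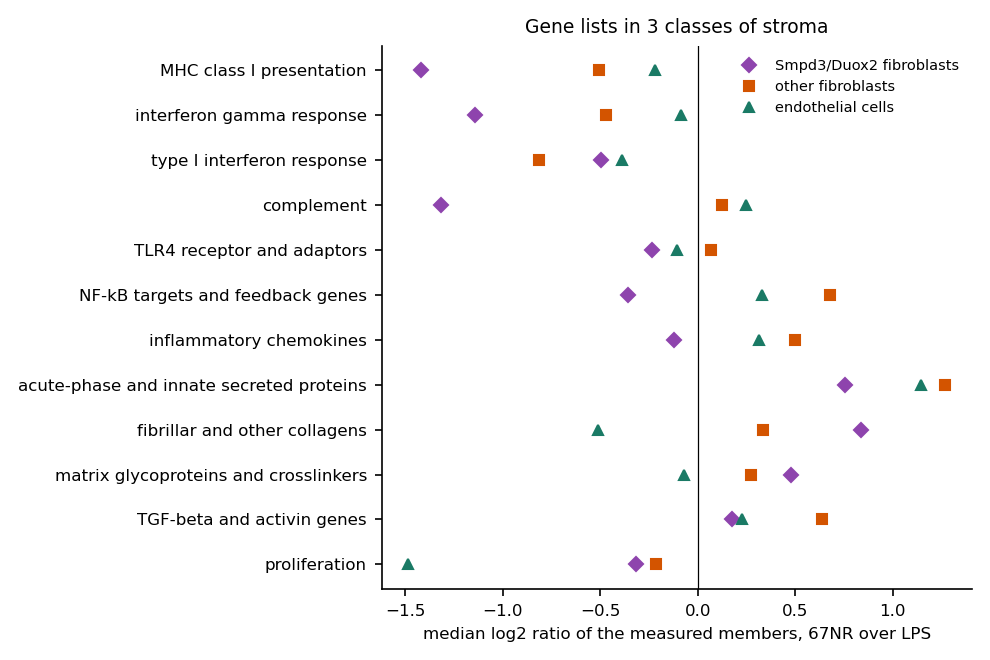
Median log2 ratio of CPM, 67NR over LPS, of 12 gene lists in Smpd3/Duox2 fibroblasts, other fibroblasts and endothelial cells, 1 pool per condition. MHC class I genes are lowest in Smpd3/Duox2 fibroblasts (-1.42) and nearest 0 in endothelial cells (-0.22), while NF-kB genes are above 0 in other fibroblasts (0.68) and below 0 in Smpd3/Duox2 fibroblasts (-0.36, or -0.04 with the hashtag 10 times the next).

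In the T-zone gate (89 against 52 cells, Smpd3/Duox2 cells left out), 474 of 8120 genes (5.84%) were higher and 262 (3.23%) lower. Ccl2 had its highest ratio there, at 4033 against 835 CPM (2.27), and Nfkb1 was at 1.39. Of the lists, NF-kB genes had 4 higher and none lower (median 0.70), inflammatory chemokines 5 of 11 higher and none lower (median 0.75), and MHC class I genes none in either direction (median -0.31). Ifit1 was at 20.9 against 166 CPM (-2.99) in the same cells. Saa3 had 1 UMI in the 67NR cells of this gate and 717 in the LPS cells, where it was found in 23.1% of cells. Postn was lower in the 67NR pool in this gate, at 274 against 430 CPM (-0.65), the reverse of its direction over all fibroblasts.

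A second library of the series, made from myeloid and stromal cells, held 185 fibroblasts of a 67NR pool and 106 of a naive pool by the same rules. It had no LPS hashtag, so the ratio of 67NR over LPS could not be taken in it. The stromal library had 6, 8, 14 and 20 barcodes in common with the 4 other gene libraries. The genes that were past 2-fold in the 67NR pool over LPS could thus be set beside 67NR over naive in other cells. Of 390 higher genes measured in both, 110 (28.2%) were also past 2-fold higher than naive there, against 3.03% of all 9705 genes, and 10 (2.56%) were lower. Of 134 lower genes, 54 (40.3%) were past 2-fold lower than naive, against 3.97%, and 7 (5.22%) were higher. Without the Smpd3/Duox2 cells in either library, 117 of 397 higher genes (29.5%, against 4% of all 8635) and 53 of 151 lower genes (35.1%, against 4.96%) did the same. The log2 ratio over naive in that library was 2.04 for Duox2, 2.70 for Tnc, 3.86 for Ccn2 and 3.87 for Cxcl2, and it was -4.13 for Rsad2 and -2.84 for Ifit1. The same 2 interferon genes were thus low in the 67NR pool against naive cells in the second library, while in the first the 67NR and naive levels of Rsad2 were 2.64 and 3.10 CPM. H2-D1 was at -0.34 and Cxcl13 at 2.03. In the first library the Cxcl13 level of the 67NR pool was level with that of the naive pool, as given above. The 2 libraries thus differed for Cxcl13 in 67NR against naive cells. The share of Smpd3/Duox2 cells among the fibroblasts of the second library was 38.9% in 67NR (72 of 185), 50% in 4T1 (60 of 120) and 25.5% in naive (27 of 106). A Duox2 UMI was found there in 25.4% of 67NR (47 of 185), 35.8% of 4T1 (43 of 120) and 11.3% of naive fibroblasts (12 of 106). In both shares the 4T1 pool, not the 67NR pool, was the highest.

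**Figure D3:**
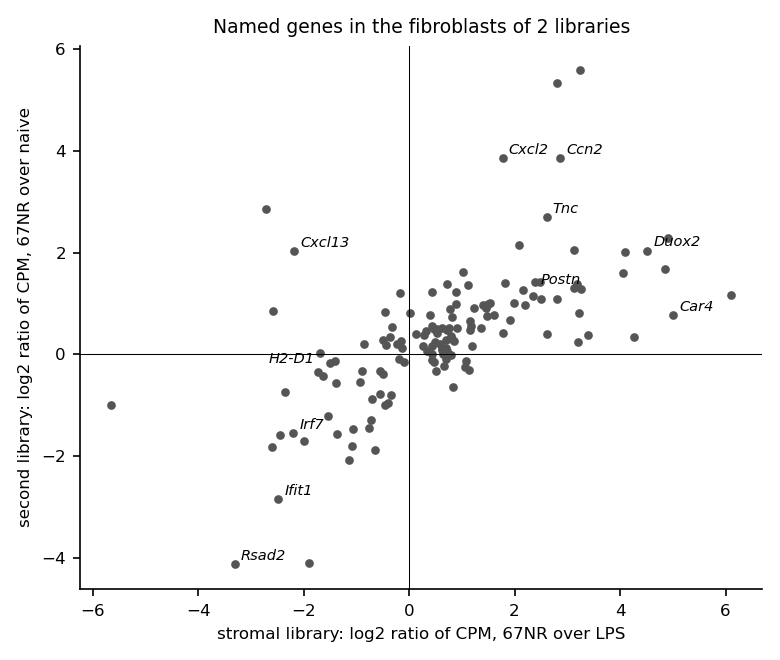
Each point is 1 of 139 named genes in fibroblasts: x, log2 ratio of CPM of 67NR over LPS in the stromal library; y, log2 ratio of 67NR over naive in the second library, 1 pool per condition. Duox2 (4.52 and 2.04), Tnc (2.61 and 2.70) and Ccn2 (2.87 and 3.86) are high on both axes, Rsad2 (-3.31 and -4.13) is low on both, and Cxcl13 is low on x (-2.18) and high on y (2.03).

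Across all endothelial cells, 325 of 10414 measured genes (3.12%) were past 2-fold higher in the 67NR pool and 346 (3.32%) lower, with a median of -0.02. Addressin and lymphatic genes were among the higher ones, and interferon-stimulated and cell-cycle genes among the lower ones. Counts by list over all endothelial cells below read against 3.12% of all genes higher and 3.32% lower. The vessel types were not equally common. Lymphatic cells, gated by 2 or more UMIs of Prox1, Lyve1 and Mmrn1, made up 26.3% of 67NR endothelium (72 of 274, exact interval 21.2 to 31.9%) and 15.9% of LPS (27 of 170, 10.7 to 22.3%), venule cells, gated by 5 or more UMIs of Chst4, Fut7 and Glycam1, 12.4% (34; 8.75 to 16.9%) and 7.06% (12; 3.70 to 12%), and other blood endothelial cells 61.3% (168) and 77.1% (131). The lymphatic share was 22.2% in the 4T1 and 15.9% in the naive pool, so differences over all endothelial cells are given with those within a vessel type.

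Glycam1 encodes an L-selectin-binding mucin of high endothelial venules and was at 15375 CPM in 67NR, 2239 in LPS, 21819 in 4T1 and 17016 in naive endothelial cells, a log2 ratio of 2.78 (2.73 to 2.83). The LPS pool was far below the other 3, and 85.1% of the UMIs were in the top 5% of cells. Fibroblasts of the 67NR pool, which should lack the gene, had 22.6 CPM. In the venule gate, which uses Glycam1 and so describes only the cells it picked, the levels were 55222 and 11686 CPM; 3.8% of all genes were past 2-fold higher there and 3.48% lower. Madcam1, the mucosal addressin bound by integrin alpha4 beta7, was at 105, 12.8, 67.1 and 75.7 CPM (3.03, 2.42 to 3.71), with the LPS pool again the lowest. Chst4, which sulphates the L-selectin ligands, had a ratio of 0.76, and Fut7, which fucosylates them, 0.46. Of 11 addressin and venule genes 2 were past 2-fold higher and none lower (median 0.30). Hs6st3, a heparan sulphate sulphotransferase gene, was at 366, 32.8, 202 and 170 CPM (3.48).

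Genes of lymphatic endothelium were higher in the 67NR pool over all endothelial cells, 8 of 14 past 2-fold and none lower (median 1.09), and within the lymphatic gate 2 of 13 were higher and 1 lower (median 0.25; 4.21% of all genes higher and 4.28% lower there). Prox1, the transcription factor of lymphatic identity and part of the gate, was at 257, 99.4, 197 and 126 CPM (1.37). Reln, an extracellular glycoprotein of lymphatic vessels, had 50 against 2 UMIs (3.75). Ccl20, the chemokine of CCR6-bearing cells made by the floor of the subcapsular sinus, was at 847, 102, 905 and 241 CPM (3.06, 2.84 to 3.28), and at 2.25 within the lymphatic gate, with 96.0% of its UMIs in the top 5% of cells. Vcam1, an adhesion molecule for lymphocytes, was at 416, 115, 335 and 237 CPM (1.86, 1.65 to 2.07). Its ratio was 1.32 in the lymphatic gate, 0.29 in the venule gate and 1.41 in other blood endothelial cells. Bmp2, a bone morphogenetic protein, was at 281, 67.8, 293 and 197 CPM (2.05). Mgp, a matrix protein that blocks calcification and BMP signals, had 470 against 8 UMIs (4.99), 98.7% of them in the top 5% of cells, and Flrt3, an adhesion and guidance molecule, 137 against 4 (4.21).

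**Figure D4:**
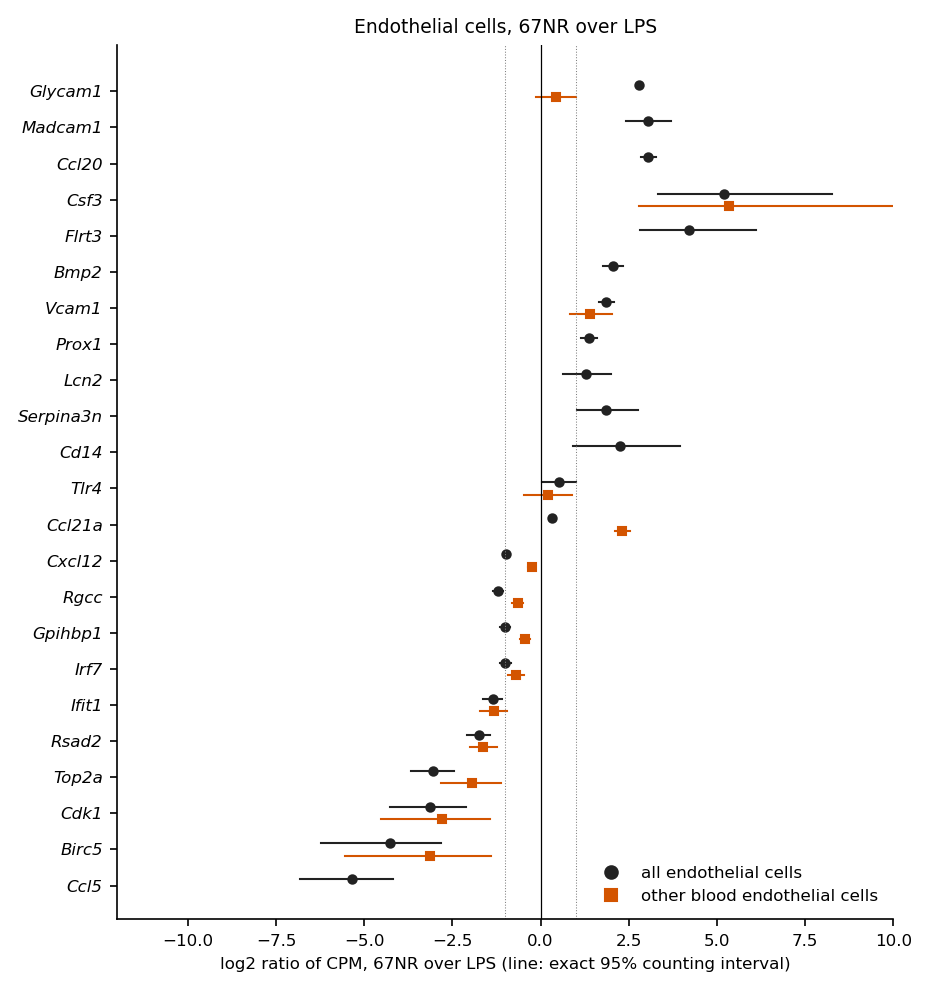
Log2 ratio of CPM, 67NR over LPS, for 23 named genes in all endothelial cells and in blood endothelial cells outside the lymphatic and venule gates, 1 pool per condition. Bars are exact 95% counting intervals and dotted lines mark 2-fold. Vcam1, which is in neither gate, is at 1.86 and 1.41 in the 2 sets. Glycam1 (2.78 and 0.42) and Prox1 are parts of the gates that remove cells, so nothing is read from their shifts.

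Some endothelial genes came from very few cells. Csf3, the colony-stimulating factor of neutrophils, had 136 against 2 UMIs (5.2, 3.32 to 8.26), and 100% of its UMIs were in the top 5% of cells. Csf2, the granulocyte-macrophage factor, had 41 UMIs in 0.73% of 67NR cells and 0 in LPS cells, at least 7.37-fold higher against a floor of 3 UMIs for the pool. Acute-phase genes were 6 of 9 past 2-fold higher and none lower (median 1.15). Lrg1, a leucine-rich glycoprotein of activated vessels, was at 948, 423, 1351 and 668 CPM (1.16), Serpina3n, a protease inhibitor, at 27.9 against 7.78 CPM (1.84), Cp, the copper oxidase ceruloplasmin, at 150 against 56.1 CPM (1.42), and Clu, the chaperone clusterin, at 2811 against 1373 CPM (1.03). Clu was at 0.32 within the lymphatic gate. Lcn2 had 108 against 24 UMIs in endothelial cells (1.28), 98.1% of them in the top 5% of cells. Cd14 was at 44 against 5 UMIs (2.25), while Tlr4 was at 42.9, 30.0, 47.0 and 42.6 CPM (0.51, 0.05 to 0.99) and Ly96 had a ratio of 0.45. The 11 myeloid markers summed to 37.5 CPM in 67NR and 26.7 in LPS endothelial cells, and 2 of the 3 measured were past 2-fold higher, Fcer1g (45 against 4 UMIs) and Itgam (40 against 10). Adgre1, Flt3 and Itgax were at 0 in both pools, and the part of myeloid RNA in the Cd14 level was not tested.

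Of 23 type I interferon response genes in endothelial cells, 4 were past 2-fold lower in the 67NR pool and none higher (median -0.39). Rsad2 was at 37.8, 128, 24.9 and 47.7 CPM (-1.76, -2.08 to -1.44), Ifit1 at 59.0, 152, 27.7 and 44.9 CPM (-1.36), and Irf7 at 180, 359, 180 and 122 CPM (-1.0). The LPS pool was the highest for all 3 genes, as in fibroblasts. MHC class I genes were 0 of 16 called (median -0.22), with H2-D1 at -0.33. MHC class II genes differed by vessel type. Over all endothelial cells 1 of 6 was past 2-fold higher (median 0.60). In the lymphatic gate none of 4 was higher and 1 was lower (median -0.55), with sums of 636 against 1096 CPM, and in the venule gate none of 5 was called (median 0.40). In other blood endothelial cells 6 of 6 were higher (median 1.29; 3.35% of all genes were higher there and 3.29% lower). Cd74, the invariant chain, was at 834, 529, 255 and 351 CPM (0.66), and at 1.51 in other blood endothelial cells, where H2-Aa was at 1.25 and H2-Ab1 at 1.12. Both the 67NR and the LPS pool were above the 4T1 and naive pools for Cd74.

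Of 13 capillary genes 2 were past 2-fold lower and none higher over all endothelial cells (median -0.59), and 1 was lower within other blood endothelial cells (median -0.29), near the share of all genes there. Rgcc, a cell-cycle regulator of capillary endothelium, was at 213, 493, 228 and 409 CPM (-1.21), and at -0.65 in other blood cells. Gpihbp1, which carries lipoprotein lipase across capillaries, was at 237, 473, 292 and 398 CPM (-1.0), and Fabp4, a fatty-acid-binding protein, at 1889, 3471, 2602 and 3604 CPM (-0.88). For these 3 genes the LPS pool was near the naive pool and the 67NR pool was the lowest. Cxcl12 was at 511, 1005, 581 and 618 CPM (-0.98, -1.07 to -0.88) over all endothelial cells, with -4.16 in the lymphatic gate, 1.25 in the venule gate and -0.25 in other blood cells, so its direction differed between vessel types. Ccl5 had 6 against 131 UMIs (-5.34).

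Proliferation genes were lower in the 67NR endothelium, 13 of 17 past 2-fold lower and 1 higher (median -1.49). Without the Smpd3/Duox2 cells 6 of 13 were lower and none higher (median -0.97; 3.39% of all genes were higher there and 2.77% lower). Just 4 LPS endothelial cells in the Smpd3/Duox2 gate held 356 of the 1484 proliferation UMIs of the LPS pool, whereas the 5 such cells of the 67NR pool held 12 of 1090. Top2a, the topoisomerase of dividing cells, had 29 against 129 UMIs (-3.04, -3.68 to -2.45), and -2.04 without those cells. Birc5, the mitotic regulator survivin, had 4 against 42 UMIs, and Cdk1, the mitotic kinase, 10 against 47. The share of endothelial cells with 5 or more proliferation UMIs was 31.4% in the 67NR pool (86 of 274) and 27.6% in the LPS pool (47 of 170), so the number of such cells did not follow the summed level.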

How the data were processed

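The authors deposited 10x 3' v3.1 gene and hashtag counts (UMIs per gene or TotalSeq-B antibody and barcode), for which the submitters' processing notes name Cell Ranger 7.0 and the mm10 build. The stromal library held 3507 barcodes and 32285 genes; 2540 passed 500 UMIs and 10% mitochondrial UMIs, and 2353 had a hashtag call. Summed depth was 5307358 and 3824094 UMIs in 67NR and LPS fibroblasts and 3337531 and 1800304 in endothelial cells, so genes under 10 expected UMIs were not called. Cells with a second hashtag above the 3-fold limit were dropped as doublets or uncertain; doublets within a pool were not sought.

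UMIs were summed per pool and gate and compared as CPM with exact conditional binomial intervals. Shares have exact Clopper-Pearson intervals. With 1 pool per condition no test was run. The scripts were tested on simulated data. Members, gates and the 40 gene lists were chosen with earlier results of these data known. Named genes were, per comparison, the 15 highest and 15 lowest with a UMI in at least 10% of cells of the higher pool, the 10 that differed most on leaving out Smpd3/Duox2 cells, list members with the largest ratios, and a set list (Smpd3, Duox2, Lcn2, Saa3, Il33, Il6, the homeostatic chemokines Ccl19, Ccl21a, Cxcl12 and Cxcl13, the monocyte chemokines Ccl2 and Ccl7, and the LPS receptor genes Tlr4, Ly96 and Cd14); immunoglobulin and T-cell receptor segments, haemoglobin, mitochondrial, ribosomal and unnamed genes were passed over. The marker genes of other cells were added to show their levels. A count of 0 was replaced by a floor of 3 UMIs for a bound. Gene coordinates are from GENCODE M21 (255 of 255 named genes matched) and promoter sequences from RefSeq on GRCm38.p6. Alternatives were other hashtag, depth, mitochondrial and low-count limits, thinning, per-cell means, centring, leaving out deep or immunoglobulin-rich cells, and narrower gates. Python 3.11.15, numpy 2.4.6, scipy 1.17.1, pandas 2.3.3 and matplotlib 3.10.9 were used.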

Additional observations from a re-analysis of the deposited data

Results flagged for a closer look

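Several named genes differed past 2-fold in opposite directions in fibroblasts and endothelial cells of the same pools; the difference between the cell types was not tested, since there is 1 pool per condition. Of 9720 genes measured in both, 26 did so. Over all measured genes, 4.6% were higher and 2.68% lower in fibroblasts, and 3.12% higher and 3.32% lower in endothelial cells. Whether 26 genes are more than unrelated calls at these shares would give was not tested. Lcn2, the lipocalin, had a log2 ratio of 67NR over LPS of -5.64 in fibroblasts (1 against 36 UMIs) and 1.28 in endothelial cells (108 against 24). Sema3a, an axon and vessel guidance semaphorin, was at -2.87 (4 against 21 UMIs) and 2.13 (834 against 103). Ptn, the growth factor pleiotrophin, was at -2.44 and 2.37, and Adm, the vasodilator adrenomedullin, at -1.39 and 1.22. The other direction was seen for Ccn2 at 2.87 and -2.04, Gprin3 at 4.01 and -2.11, and the collagen Col8a1 at 3.25 and -1.92. Their endothelial counts were small, 9 against 20 UMIs for Ccn2, 9 against 21 for Gprin3 and 24 against 49 for Col8a1. Adm did not keep its direction in all fibroblast groups, with -0.22 without Smpd3/Duox2 cells and 0.27 in the T-zone gate without them. In the second library Ptn was at -1.59 in fibroblasts of the 67NR pool over naive.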

How the results depend on the processing

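No paired analysis was possible because each condition was 1 pool of mice with no replicate number. Under the 13 alternatives, 2056 of 2427 values of named genes stayed within the counting interval of the main value. Of the list medians, 526 of 576 stayed within the typical counting interval of their members. Of the counts of genes, 66 of 92 stayed within a set fold of the main count. Turned directions were sought where the main ratio was past 2-fold. Among named genes, Postn in fibroblasts was at -0.34 and Adm at 0.27 in the T-zone gate with its Smpd3/Duox2 cells kept in (Postn -0.65 without them). Within Smpd3/Duox2 cells, Ccl2 was at -0.25 and, with a hashtag 10 times the next, at 0.44. Thinned to 2000 UMIs per cell, which left out 29 and 17 shallower cells, 331 genes were higher and 156 lower in all fibroblasts, 263 and 153 without Smpd3/Duox2 cells, 206 and 147 in all endothelial cells, and 211 and 138 without those cells. With 25 expected UMIs the pairs were 349 and 145, 292 and 135, 166 and 119, and 176 and 94. With no filter on low genes they were 1293 and 1275, 1208 and 1286, 1086 and 1336, and 1170 and 1180. Outside the lymphatic gate 204 genes were higher in endothelial cells and 217 without Smpd3/Duox2 cells. With a hashtag 10 times the next, fibroblasts were 35.1% and endothelial cells 37.7% of the 67NR pool, and Smpd3/Duox2 cells 33.0% of its fibroblasts (42.0% in the LPS pool, so the order turned). After thinning, fibroblasts were 54.5% and 57.5% of the 67NR and LPS pools, endothelial cells 26.9% and 23.3%, and Smpd3/Duox2 cells 44.9% and 14.7% of fibroblasts. Fewer UMIs, or fewer or more genes tested, shift these counts by construction; the cause of the other shifts was not tested. Requiring the second hashtag to be under 10 counts left 0 fibroblasts in the 67NR and 1 in the LPS pool and no endothelial cell, so no value was given. A fibroblast gate that allowed up to 2 Pecam1 UMIs, and the hashtag limit within Smpd3/Duox2 cells, were chosen after seeing the data.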

Other observations

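Of the cells kept, 275 of the 67NR pool (30.2%, exact interval 27.2 to 33.3%) and 213 of the LPS pool (34.9%) met neither gate. Most had collagen UMIs and a Pecam1 UMI but no Ptprc, 229 and 158 cells, and 22 and 35 had a Ptprc UMI. The 229 and 158 cells resembled the gated fibroblasts in markers, with Pdgfra in 91.3% and 81.6% and Cdh5 in 3.06% and 6.33%. The Smpd3/Duox2 rule was met by 128 (46.5%) and 63 (29.6%) of the cells outside the gates, so such cells were not restricted to the gated fibroblasts. Heat shock genes in fibroblasts were 3 of 13 past 2-fold higher in the 67NR pool and none lower (median 0.20). Over all genes 4.6% were higher and 2.68% lower. Hspa1b was at 194 CPM in 67NR, 75.6 in LPS, 132 in 4T1 and 303 in naive fibroblasts, so the naive pool was the highest for this dissociation-sensitive chaperone.

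Genes that were in no list of the report also stood apart. Ptn in fibroblasts was at 43.3 CPM in 67NR, 236 in LPS, 67.8 in 4T1 and 195 in naive cells (-2.44), low in both tumour pools. Prg4, the lubricating proteoglycan, had 12 against 92 UMIs (-3.41). Tnfsf8, the ligand of CD30, was at 37.5, 8.89, 16.8 and 9.31 CPM (2.08).

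The limits are those of 1 pool per condition: mice, timing, dissection and treatment cannot be told apart. The mitochondrial limit removed 34.1% of 67NR and 14.1% of LPS barcodes with a hashtag call. Which agent or agents the LPS pool received is not given in the labels.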
